A study of Drosophila melanogaster with 16 samples.

Results

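Long non-coding RNAs were measured in the hearts of 2 potassium channel mutants of Drosophila melanogaster by 105 probesets, sets of short probes on the Affymetrix Drosophila Genome 2.0 array that each report on a transcript. These are the probesets whose only gene symbol in the platform annotation starts with lncRNA: (91 probesets of 75 genes) or asRNA: (14 probesets of 13 antisense genes), with lncRNA:roX1 and lncRNA:roX2 set aside. They stand for 88 genes, out of 18769 probesets tested in all and 13646 with a single symbol. The study pooled 30 manually extracted hearts of 3-week-old flies for each of 16 arrays and asked how the loss of either channel changes gene expression. The sei hearts (n = 5) came from seits1 flies, which carry a chemically induced stop mutation in seizure, the fly homolog of the hERG channel, in the Canton-S background. Their control was Canton-S itself (WtCS, n = 5). The KCNQ hearts (n = 3) came from flies labelled KCNQ37, an allele made by imprecise excision of a P-element and written KCNQ370 in the study's text. The control of the KCNQ hearts was KCNQ97, the precise excision of the same element from the KCNQ locus of w1118 flies (WtPE, n = 3). Each genotype is 1 line, flies were separated by sex without a statement of which sex was used, and nothing links arrays of different genotypes to shared animals. Values are log2 intensities after the authors' RMA normalization. The brightness of a probeset depends on its probes, so it was compared between groups and not taken as abundance between genes.

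Long non-coding RNAs are transcripts without a long open reading frame. Some act where they are made, by transcription through a neighboring gene or its control region, others act elsewhere in the nucleus as scaffolds for proteins, and some are precursors of microRNAs or small nucleolar RNAs. Antisense RNAs are read from the strand opposite to a protein-coding gene. In flies the well studied examples include the RNAs of the Bithorax complex and the transcripts of the heat shock loci, while most genes with a CR number have no assigned role, and none is given below for them.

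**Figure D1:**
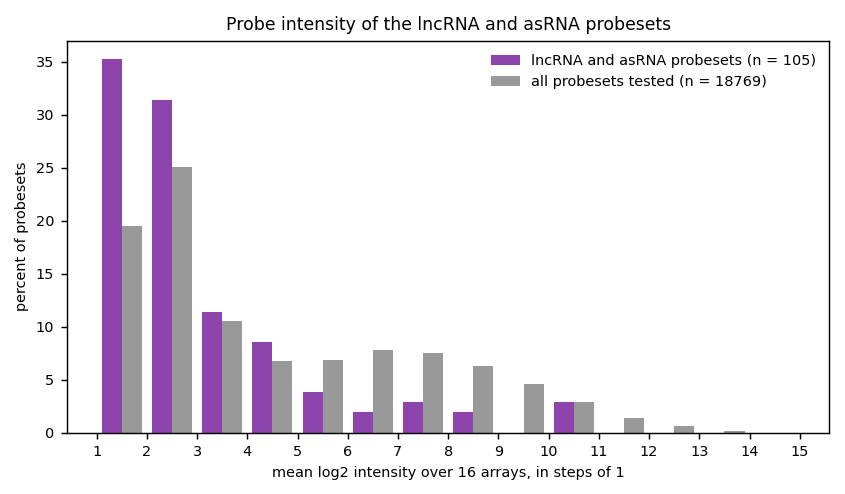
Mean log2 intensity over the 16 arrays (x axis, in steps of 1) against the percent of probesets in each step (y axis), for the 105 lncRNA and asRNA probesets and for all 18769 probesets tested. The lncRNA and asRNA probesets crowd at the low end, with 66.7% of them under a log2 of 3, against 44.6% of all probesets.

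Most of these RNAs gave a dim signal. Over all arrays the median of the mean log2 intensity was 2.36 for the lncRNA and asRNA probesets, against 3.42 for all probesets, and 14 of the 105 (13.3%) reached a mean log2 of 5, against 38.2% of all probesets. The 10th percentile of all probesets lay at a log2 between 1.44 and 1.93, depending on the array, so a value near that level cannot be told apart from background, and a fold change against it is compressed. The 5 brightest were lncRNA:CR42862 (mean log2 10.8), lncRNA:CR32368 (10.5), lncRNA:alphagamma-element:CR32865 (10.3), asRNA:CR43944 (8.55), which lies antisense to fbl, a pantothenate kinase gene, and lncRNA:CR31781 (8.15). The 5 dimmest were lncRNA:CR43461 (1.30), lncRNA:CR43917 (1.35), 2 of the 3 probesets of lncRNA:CR34047 (1.36 and 1.37) and lncRNA:CR44066 (1.45). The median of the 105 values lay between 2.12 and 2.58 in the sei arrays and between 2.11 and 2.60 in the WtCS arrays, and between 2.36 and 2.50 in the KCNQ arrays and 2.32 and 2.40 in the WtPE arrays. As a group these RNAs thus overlapped between the genotypes. Within-group scatter had a median SD of 0.344 in sei, 0.352 in WtCS, 0.218 in KCNQ and 0.224 in WtPE hearts, close to the 0.398, 0.408, 0.220 and 0.222 of all probesets.

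By the array names of the study's dataset, 3 runs can be told apart. Replicates 4 and 5 of sei and WtCS were in run A with every KCNQ and WtPE array, WtCS replicates 1 and 2 formed run B, and WtCS replicate 3 was in run C with sei replicates 1, 2 and 3. Sample codes in these names repeat between sei replicates 3 and 4, sei replicates 2 and 5, and WtCS replicates 2 and 3, so that some arrays may share RNA and p-values then measure only the spread between arrays. Median intensity was 10.2 to 12.3 on all arrays. The seizure gene itself had a lower signal in sei hearts (log2 4.82 ± 0.55, SD, n = 5) than in WtCS hearts (5.77 ± 0.28, SD, n = 5; adjusted p = 0.0212), while no probeset carried KCNQ as its only symbol. Markers of some other tissues moved with the sei comparison, in which 6.47% of all probesets were higher and 4.66% lower. Of 7 hemocyte markers 1 was higher and 5 were lower in sei hearts, with a summed intensity of 3073 to 4202 in sei and 6374 to 8782 in WtCS arrays. Of 12 testis and sperm markers 7 were higher and 0 lower (944.5 to 4520 in sei, 112.4 to 1263 in WtCS), of 6 ovary and germline markers 0 were higher and 4 lower (97.65 to 860 in sei, 822.7 to 3652 in WtCS), and of 7 neuronal markers 0 were higher and 2 lower (162.9 to 408.2 in sei, 689.1 to 1090 in WtCS). The 2 neuronal markers called were Ace and nrv3, which averaged a log2 of 9.38 in WtCS and 6.43 in sei hearts. The markers elav, nSyb, para, brp and Appl were not called. None of the 6 heart muscle markers measured was called. None of 10 fat body, 5 gut, 6 male accessory gland and 3 tracheal markers was called either, and of 7 pericardial cell markers 1 was lower. In KCNQ against WtPE hearts no marker of these lists was called. The part of other tissues in the lncRNA results was not tested, and in pooled hearts fewer cells of a type cannot be told apart from less RNA per cell.

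Against WtCS hearts, 4 lncRNA probesets rose and 4 fell in sei hearts. The largest differences were the near loss of CR30121 signal and the higher signal of CR9284. At an adjusted p under 0.05 in limma, 6.47% of all probesets were higher and 4.66% were lower in sei than in WtCS hearts. The 8 called of 105 make 7.62%, against 11.1% of all probesets, so these RNAs were not called more often than other transcripts. The median log2 difference was -0.08 over the 105 and -0.02 over all probesets.

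**Figure D2:**
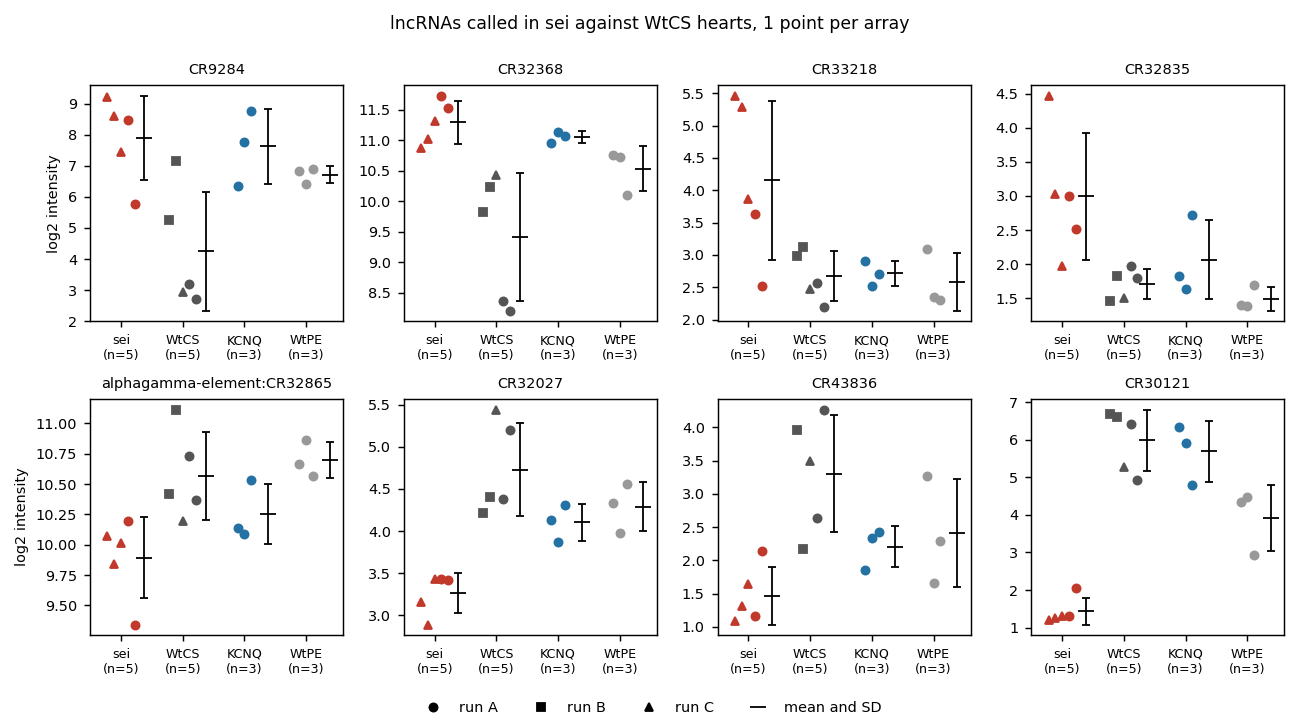
Log2 intensity (y axis) on each array for the 8 lncRNAs called in sei against WtCS hearts, with the groups sei, WtCS, KCNQ and WtPE along the x axis, marker shape for the array run and bars for the mean and SD. CR30121 lies between 1.21 and 2.05 in sei hearts and between 4.92 and 6.67 in WtCS hearts, and for CR9284, CR32835 and CR33218 the sei and WtCS points overlap.

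CR30121, on chromosome arm 2R, overlaps Hs3st-A, which encodes a heparan sulfate sulfotransferase, and CG33998. Its log2 intensity was 1.21, 1.27, 1.31, 1.31 and 2.05 in the sei replicates, against 6.67, 6.61, 5.29, 6.40 and 4.92 in the WtCS replicates. All 5 sei arrays were close to the level of the dimmest probesets of the array, and all 5 WtCS arrays lay far above it. The signal fell by 4.55 ± 0.40 on the log2 scale (SE, 23.4-fold, adjusted p = 3.01e-06). The KCNQ hearts had 6.34, 5.92 and 4.79 and the WtPE hearts 4.34, 4.49 and 2.92, so every other genotype was brighter than sei. Within run A the difference was -3.98 (adjusted p = 0.0157), in run C -4.02, and with the run as a covariate -4.00 (adjusted p = 9.59e-05). Signal of genes around it was also lower in sei hearts. CG33998 had a log2 difference of -1.13 (adjusted p = 0.0271), List, a transporter gene on one side, had -1.31 and -1.57 in 2 of its 3 probesets (adjusted p = 0.0273 and 0.0179), and CG18609 on the other side had -0.81 (adjusted p = 0.00621). Hs3st-A itself differed by -0.58 (adjusted p = 0.623). For CG33998 the sei arrays at 1.54 to 3.09 overlapped the WtCS arrays at 2.74 to 4.42. WtCS replicates 1 and 2, the arrays of run B, were the highest for CG33998 and for both called List probesets. The tables used here do not give the strand of a probe, so signal of overlapping genes cannot be told apart with certainty.

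CR32027, on arm 3L, overlaps Indy, the citrate transporter gene known for its effect on fly lifespan. It had 3.16, 2.89, 3.43, 3.43 and 3.42 in sei hearts, against 4.21, 4.40, 5.44, 4.39 and 5.20 in WtCS hearts, with no overlap. It fell by 1.46 ± 0.24 (SE, 2.75-fold, adjusted p = 0.000986), and the call held in run A (-1.37, adjusted p = 0.0395) and with the run as a covariate (-1.76, adjusted p = 0.000577). Indy had a log2 difference of -0.43 (adjusted p = 0.110), and Cat, the catalase gene beside it, of -0.000526 (adjusted p = 0.999). The lncRNA probeset was thus called where Indy was not, although the difference between their changes was not tested.

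CR43836, on the X chromosome, overlaps rdgA, a diacylglycerol kinase gene, together with mir-31b, Nost and 2 CG genes. Its values were 1.08, 1.31, 1.65, 1.16 and 2.14 in sei hearts and 3.96, 2.17, 3.49, 2.64 and 4.27 in WtCS hearts. The groups did not overlap, but sei replicate 5 at 2.14 and WtCS replicate 2 at 2.17 nearly touched. It fell by 1.84 ± 0.39 (SE, adjusted p = 0.00652), and in run A the difference of -1.80 had an adjusted p of 0.154. Of 4 rdgA probesets, 1 was lower in sei hearts (-1.50, adjusted p = 0.0107), and the others had differences of -0.60, -0.35 and 0.36.

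The alphagamma-element CR32865 lies on arm 3R between Hsp70Ba and Hsp70Bbb, genes of the heat shock protein Hsp70, and is known as a transcript of this heat shock locus. Its bright probeset, whose suffix marks probes that may also bind other transcripts, read 10.07, 9.85, 10.02, 10.19 and 9.34 in sei hearts and 10.42, 11.11, 10.19, 10.73 and 10.37 in WtCS hearts. The highest sei array and the lowest WtCS array were level to 2 decimals. It fell by 0.67 ± 0.20 (SE, 1.59-fold, adjusted p = 0.0443). This call was weak. It was lost without any of sei replicates 1, 2, 3 and 5 and without any of WtCS replicates 1, 2, 4 and 5 (adjusted p = 0.0502 to 0.113), and with the run as a covariate (-0.54, adjusted p = 0.166).

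Among the lncRNAs that rose, CR9284 on arm 2R moved most. It had 9.21, 8.61, 7.43, 8.48 and 5.76 in sei hearts, against 5.26, 7.17, 2.93, 3.20 and 2.72 in WtCS hearts. Sei replicate 5 was low and WtCS replicates 1 and 2 were high, so the groups overlapped. The signal rose by 3.64 ± 0.81 (SE, 12.5-fold, adjusted p = 0.00888), by 4.16 in run A (adjusted p = 0.0349), by 5.49 in run C and by 4.73 with the run as a covariate (adjusted p = 0.00105). The KCNQ arrays at 6.35 to 8.77 and the WtPE arrays at 6.41 to 6.89 lay within the range of the sei arrays. WtPE also exceeded WtCS, by 2.46 over all arrays (adjusted p = 0.192). That difference was 4.04 with the run as a covariate (adjusted p = 0.00367) and 3.76 in run A (adjusted p = 0.0187). In sei against WtCS hearts the CR9284 neighbors tpr and CG13492 had log2 differences of 0.17 (adjusted p = 0.708) and -0.31 (adjusted p = 0.554).

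CR32368, on arm 3L, was bright in every group. It had 10.88, 11.02, 11.31, 11.73 and 11.53 in sei hearts, against 9.83, 10.24, 10.43, 8.37 and 8.21 in WtCS hearts, with no overlap. WtCS replicates 4 and 5, which are those of run A, were the lowest. It rose by 1.88 ± 0.38 (SE, 3.68-fold, adjusted p = 0.00496), by 3.34 in run A (adjusted p = 0.000169) and by 0.64 in run C, so the size depended on the run. The KCNQ arrays lay at 10.95 to 11.14 and the WtPE arrays at 10.11 to 10.76. The WtPE control also exceeded WtCS, by 1.12 over all arrays (adjusted p = 0.213). That difference was 1.67 with the run as a covariate (adjusted p = 0.0237) and 2.24 in run A (adjusted p = 0.000637). Tmem43, a gene for a nuclear membrane protein on one side, rose by 0.86 (adjusted p = 0.0239), while syd, the gene of a motor protein adaptor on the other side, had -0.16 (adjusted p = 0.864).

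CR33218 and CR32835 were called with less margin. CR33218, on the X, overlaps Raf, the kinase gene of the MAP kinase cascade. CR33218 had 5.46, 5.28, 3.87, 3.63 and 2.53 in sei hearts and 2.99, 3.13, 2.48, 2.56 and 2.20 in WtCS hearts. It was highest in the sei arrays of run C and overlapped the controls in replicate 5. It rose by 1.48 ± 0.44 (SE, adjusted p = 0.0396), but by 0.70 in run A (adjusted p = 0.362) and by 1.42 with the run as a covariate (adjusted p = 0.0513). Leaving out any of sei replicates 1, 2 and 3 or of WtCS replicates 1, 3, 4 and 5 ended the call (adjusted p = 0.0574 to 0.108). CR32835, on arm 2R, had 4.47, 3.03, 1.96, 3.00 and 2.51 in sei hearts and 1.46, 1.83, 1.50, 1.96 and 1.80 in WtCS hearts. It rose by 1.28 ± 0.35 (SE, adjusted p = 0.0282), with an adjusted p of 0.111 with the run as a covariate and of 0.0607 to 0.0667 without sei replicate 2 or WtCS replicate 1.

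**Figure D3:**
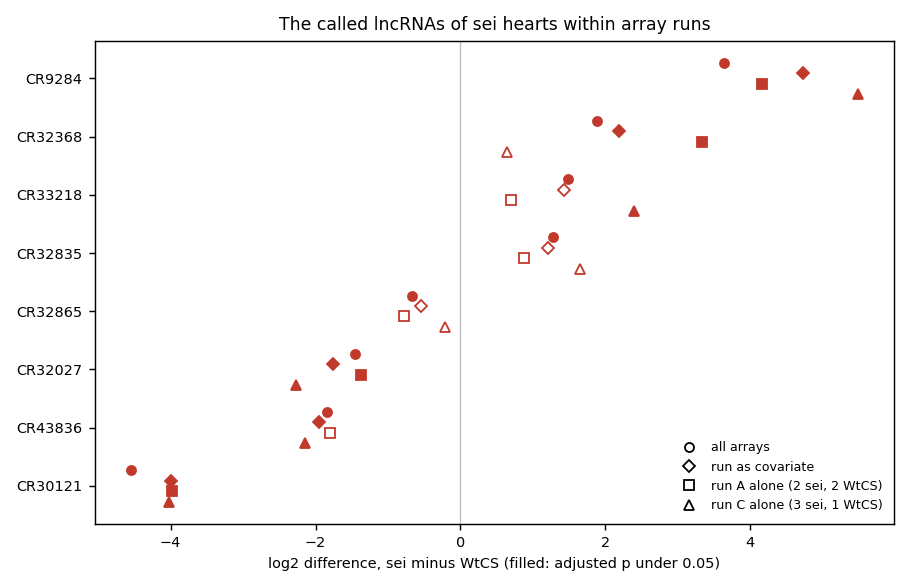
Log2 difference between sei and WtCS hearts (x axis) for the 8 called lncRNAs (rows), from all arrays, with the run as a covariate, from run A alone and from run C alone; filled symbols passed an adjusted p of 0.05. CR30121 stays between -3.98 and -4.55, and CR32368 moves between 0.64 in run C and 3.34 in run A.

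Run A, with 2 arrays of each group, and run C, with 1 WtCS array whose spread is borrowed from the KCNQ and WtPE arrays, are small, and runs are known from array names only. CR30121, CR9284, CR32027 and CR32368 kept their calls in run A, with the run as a covariate and without any single array. When each probeset was tested with its own spread alone, CR9284 (adjusted p = 0.111) and CR32368 (adjusted p = 0.0897) did not pass, while CR30121 and CR32027 did. Adding a pseudocount of 8 before the log, which shrinks the differences of dim probesets, gave -2.75 for CR30121 (adjusted p = 0.000111) and -0.77 for CR43836 (adjusted p = 0.0204), and ended the calls of CR32835 (0.56, adjusted p = 0.0751) and CR33218 (0.92, adjusted p = 0.0603). With the run taken into account, 3 further probesets passed both ways. The brighter probeset of CR31781 had a difference of -0.92 with the covariate (adjusted p = 0.00565) and of -1.24 in run A (adjusted p = 0.0192), against -0.58 over all arrays (adjusted p = 0.0929). The other probeset of this gene differed by 0.66 over all arrays (adjusted p = 0.386), by 0.22 with the covariate (adjusted p = 0.510) and by -0.09 in run A (adjusted p = 0.864). CR33942, which lies beside Hs3st-A, had 1.09 with the covariate (adjusted p = 0.0389) and 1.64 in run A (adjusted p = 0.0348), against 0.07 over all arrays (adjusted p = 0.958). CR33942 in WtPE against WtCS hearts had 1.88 with the covariate (adjusted p = 0.00239) and 2.15 in run A (adjusted p = 0.00384). Over all arrays that difference was 1.27 (adjusted p = 0.261). A probeset of CR42862 with the suffix s_at had -1.45 (adjusted p = 0.00520) and -1.89 (adjusted p = 0.00942), against -0.62 over all arrays.

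In KCNQ hearts 3 probesets of 2 lncRNA genes rose and none fell, and the gene with the most signal was CR42862. Over all probesets 0.101% were higher and 0.0693% were lower in KCNQ than in WtPE hearts, 32 in total, so the 3 lncRNA probesets, 2.86% of the 105, stood among few calls. At an unadjusted p under 0.05 limma gave 5 lncRNA probesets higher and 1 lower, against 268 higher and 259 lower of all 18769 probesets. A test of each probeset with its own spread alone called none of the 105 in either direction after Benjamini-Hochberg adjustment. The median log2 difference was 0.04 over the 105, against 0.01 over all probesets.

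CR42862 lies on arm 3L between pyx, the gene of the heat-activated channel Pyrexia, and CG42846, and overlaps CG33229. Its brightest probeset had 11.53, 11.15 and 11.68 in KCNQ hearts, against 8.49, 7.23 and 6.52 in WtPE hearts. The sei hearts at 11.05 to 11.77 and the WtCS hearts at 11.75 to 12.46 were as bright as the KCNQ hearts, so that WtPE alone was low. The KCNQ signal was higher than that of WtPE by 4.04 ± 0.38 (SE, 16.4-fold, adjusted p = 4.27e-05), with a value of 3.59 to 4.58 without any single array. In a fit of the KCNQ and WtPE arrays alone the adjusted p was 0.0509.

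In the other probesets of the gene WtPE was the lowest group as well. The s_at probeset had 4.62, 4.74 and 5.10 in KCNQ hearts, against 2.07, 1.38 and 1.77 in WtPE hearts, and was higher by 3.09 ± 0.51 (SE, adjusted p = 0.0137). That call was lost without KCNQ replicate 2 or 3 or WtPE replicate 2 (adjusted p = 0.0639 to 0.103) and with a pseudocount of 8 (1.68, adjusted p = 0.246). The third probeset had 5.74, 4.04 and 5.32 in KCNQ hearts and 2.62, 3.17 and 2.97 in WtPE hearts, a difference of 2.11 ± 0.43 (SE, adjusted p = 0.0741) that passed only when KCNQ replicate 2 was left out (adjusted p = 0.0109).

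The neighborhood of CR42862 changed with it. CG33229 had 9.88, 10.15 and 10.20 in KCNQ hearts, against 5.89, 6.10 and 6.29 in WtPE hearts, and rose by 3.98 (adjusted p = 3.33e-06). CG42846 had 8.79, 8.88 and 8.56 in KCNQ hearts, against 6.11, 6.99 and 7.34 in WtPE hearts, and rose by 1.93 (adjusted p = 0.00775). In pyx the difference was 0.36 (adjusted p = 1). In sei hearts, by contrast, pyx rose by 1.15 (adjusted p = 0.0168) and CG33229 fell by 0.76 (adjusted p = 0.0481), while no CR42862 probeset was called over all arrays. For CG33229 the sei arrays at 8.98 to 9.84 overlapped the WtCS arrays at 9.42 to 10.7, of which those of run B were the highest. The low signal in WtPE hearts thus reached over CR42862 and these 2 genes but was not called in pyx.

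**Figure D4:**
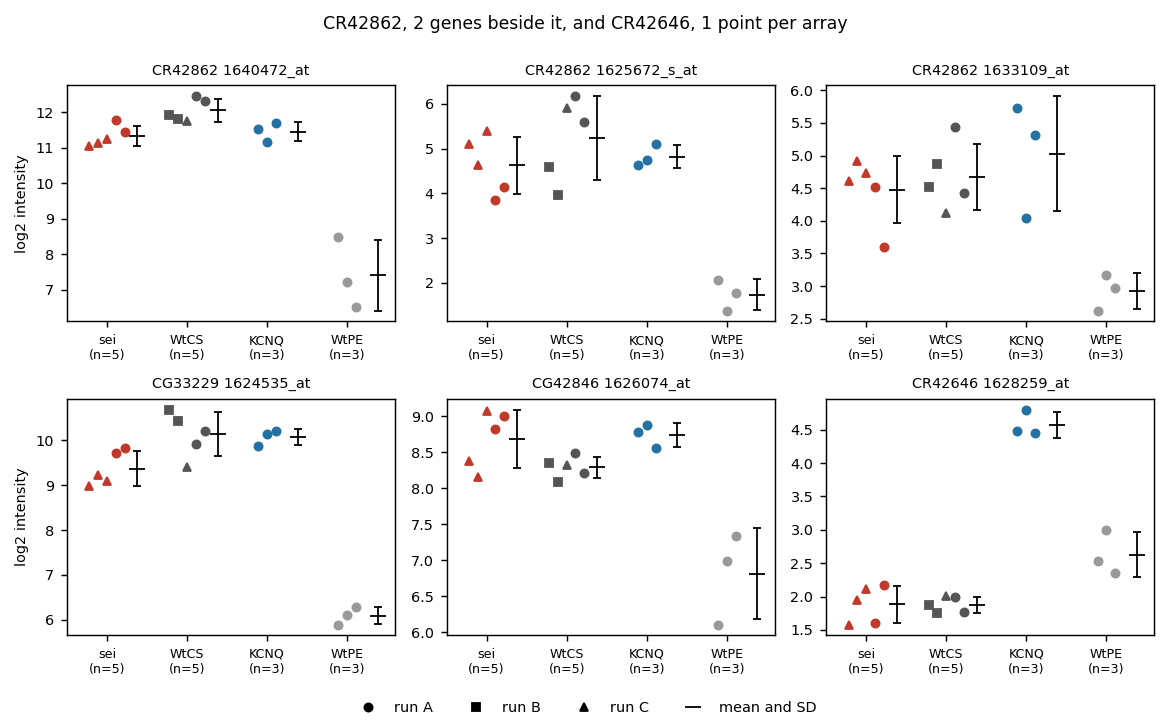
Log2 intensity (y axis) on each array for the 3 probesets of CR42862, for CG33229 and CG42846 next to it and for CR42646, with the groups sei, WtCS, KCNQ and WtPE along the x axis, marker shape for the array run and bars for the mean and SD. In the first 5 panels the 3 WtPE arrays lie below all others, and for CR42646 the 3 KCNQ arrays, at 4.45 to 4.80, lie above all others.

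CR42646 lies on arm 2R between CG10417 and stw, the gene of a cuticle laccase. It had 4.48, 4.80 and 4.45 in KCNQ hearts, against 2.54, 3.00 and 2.35 in WtPE hearts, and between 1.58 and 2.17 in the sei and WtCS hearts. Here KCNQ stood above all other genotypes. The signal rose by 1.95 ± 0.22 (SE, 3.86-fold, adjusted p = 0.000335) and stayed between 1.81 and 2.13 without any single array. With a pseudocount of 8 it was 1.16 (adjusted p = 2.65e-05). CG10417 had a difference of -0.10 and the 3 stw probesets of -0.16, 0.03 and 0.32 (adjusted p = 1 for each). In sei hearts CG10417 fell by 0.55 (adjusted p = 0.0299) and 1 stw probeset by 1.70 (adjusted p = 0.0462). For this stw probeset the sei arrays at 3.14 to 4.51 overlapped the WtCS arrays at 3.96 to 6.95. The WtCS arrays of run B, at 6.95 and 6.83, were the highest. In run A the sei arrays had 3.32 and 4.51 and the WtCS arrays 3.96 and 4.24, so the fall was not seen in each run. The fifth member in order of p-value was CR30121, with 6.34, 5.92 and 4.79 in KCNQ hearts and 4.34, 4.49 and 2.92 in WtPE hearts, a difference of 1.77 ± 0.52 (SE, adjusted p = 0.651) that did not pass.

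**Figure D5:**
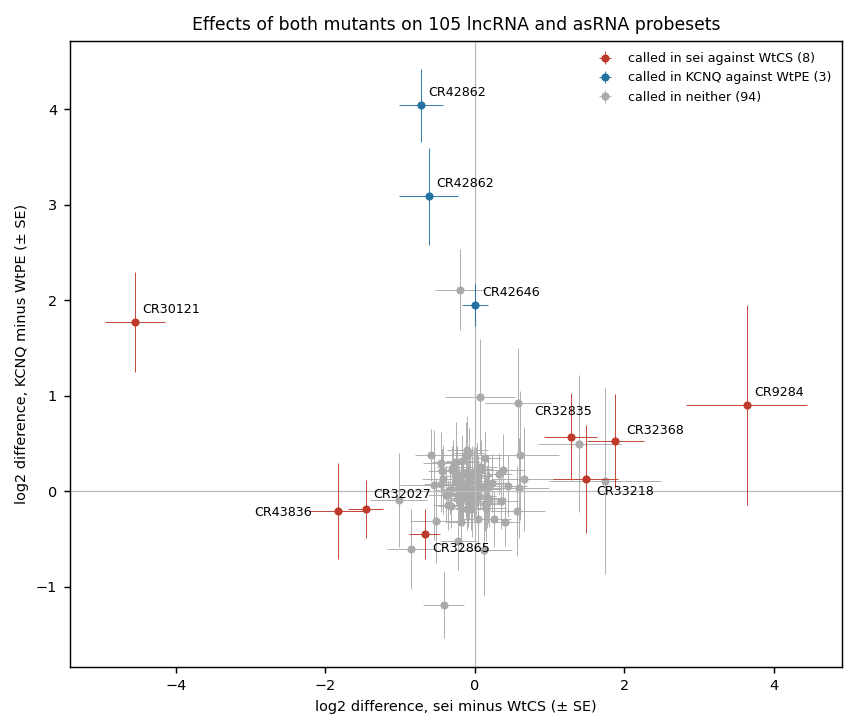
Log2 difference with its SE in KCNQ against WtPE hearts (y axis) and in sei against WtCS hearts (x axis) for the 105 lncRNA and asRNA probesets, with the 8 called in sei and the 3 called in KCNQ hearts named. No probeset was called in both, and CR30121 has a negative value in sei and a positive one in KCNQ hearts.

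Whether the mutants differed was tested by subtracting the KCNQ effect from the sei effect. In this difference 5 lncRNA probesets of 3 genes were lower and none was higher, where 0.655% of all probesets were lower and 0.730% higher. At an unadjusted p under 0.05, 9 of the 105 were lower and 2 higher, against 915 lower and 1102 higher of all 18769 probesets. CR30121 had a difference of effects of -6.32 ± 0.66 (SE, adjusted p = 5.47e-05), since its signal was lower in sei hearts than in WtCS hearts by 4.55 and its KCNQ value exceeded WtPE by 1.77. The brightest, the s_at and the third probeset of CR42862 had -4.76, -3.71 and -2.31 (adjusted p = 3.94e-05, 0.00527 and 0.0455) and CR42646 had -1.94 (adjusted p = 0.00128). For these 2 genes the effect in sei hearts was not called over all arrays (-0.72, -0.62 and -0.20 for CR42862, and 0.01 for CR42646). A pseudocount of 8 gave -4.09 for CR30121 (adjusted p = 0.000878) and -1.16 for CR42646 (adjusted p = 9.64e-05), and ended the calls of the s_at (-2.18, adjusted p = 0.0504) and the third CR42862 probeset (-1.56, adjusted p = 0.0947). The third CR42862 probeset kept its call in 4 of the 16 fits that each left out an array. Its adjusted p was 0.0578 to 0.160 in the other 12, which left out WtCS replicate 1, 2, 4 or 5, sei replicate 1, 3 or 4, KCNQ replicate 1 or 3, or WtPE replicate 1, 2 or 3. CR9284, with a rise of 3.64 in sei and a value of 0.91 in KCNQ hearts, did not differ by this test (2.74 ± 1.32, adjusted p = 0.484), and neither did CR32027 (-1.28, adjusted p = 0.160) or CR43836 (-1.63, adjusted p = 0.329). For CR32368 the difference was 1.36 (adjusted p = 0.445) over all arrays and 2.81 in run A (adjusted p = 0.00293).

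The control strains differed in some of the same lncRNAs. In WtPE against WtCS hearts 2 lncRNA probesets were higher and 4 lower, where 1.86% of all probesets were higher and 1.81% lower. This comparison shares its WtCS and WtPE arrays with the comparisons of the mutants. The 3 probesets of CR42862 were lower in WtPE hearts by 4.64, 3.51 and 1.75 on the log2 scale (differences of -4.64, -3.51 and -1.75, adjusted p = 5.24e-07, 0.000227 and 0.0158), and CG33229 differed by -4.04 (adjusted p = 2.67e-07) and CG42846 by -1.48 (adjusted p = 0.00462). CR30121 was lower in WtPE hearts as well, at 4.34, 4.49 and 2.92, against 6.67, 6.61, 5.29, 6.40 and 4.92 in WtCS hearts (-2.06 ± 0.47, SE, adjusted p = 0.0205). Its call was lost without WtPE replicate 3 or WtCS replicate 4 (adjusted p = 0.0508 to 0.134), and in run A (-1.75, adjusted p = 0.111).

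CR33963, on the X, overlaps Tis11, the gene of a protein that promotes decay of AU-rich mRNAs. CR33963 had 7.48, 7.42 and 6.28 in WtPE hearts, against 6.48, 6.00, 4.72, 5.12 and 4.57 in WtCS hearts. It rose by 1.69 ± 0.44 (SE, adjusted p = 0.0449) with overlap between the groups, and by 2.22 in run A (adjusted p = 0.0208). CR42646 had 2.54, 3.00 and 2.35 in WtPE hearts and 1.87, 1.75, 2.01, 1.99 and 1.77 in WtCS hearts, a rise of 0.75 ± 0.20 (SE, adjusted p = 0.0458). Leaving out WtPE replicate 1 or 2 or WtCS replicate 3, 4 or 5 ended the CR33963 call (adjusted p = 0.0836 to 0.208), and leaving out any WtCS array or WtPE replicate 1 or 2 ended that of CR42646 (adjusted p = 0.0512 to 0.278). Without WtPE replicate 1 or 3 the call of the third CR42862 probeset was lost too (adjusted p = 0.0525 to 0.0889). Fits of the WtPE and WtCS arrays alone did not call CR30121, CR33963 or CR42646 (adjusted p = 0.0879, 0.140 and 0.111), and a pseudocount of 8 gave 0.29 for CR42646 (adjusted p = 0.0756). All WtPE arrays are of run A, so within a run they can be compared only with WtCS replicates 4 and 5. With the run as a covariate 17 lncRNA and asRNA probesets were called (19.2% of all probesets) and in run A alone 15 (12.7% of all probesets). Of the lncRNAs named above, CR9284, CR32368, CR33942, CR43917 and the dimmer CR31781 probeset were called both ways but not over all arrays. CR43917 was lower in WtPE hearts and the others were higher.

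None of the 14 asRNA probesets was called by limma in any of the 4 comparisons, where 11.1% of all probesets were called in sei, 0.170% in KCNQ hearts, 1.39% in the difference of effects and 3.67% between the control strains. With so few probesets a count of 0 lies near these shares, and nothing is read from it. An unadjusted p under 0.05 was reached by 1 of them, in WtPE against WtCS hearts, where 1449 of all 18769 probesets were higher and 1349 lower at this threshold. Their log2 differences ran from -0.31 to 0.58 in sei hearts and from -0.52 to 0.92 in KCNQ hearts, against their controls. Under the other settings run on all of them, 1 antisense probeset was called, in WtPE against WtCS hearts with the run as a covariate. All 13 antisense genes overlap a protein-coding gene in the gene table. The bright asRNA:CR43944 had 9.32, 9.27, 9.10, 8.01 and 8.06 in sei hearts, against 8.38, 8.07, 8.42, 8.44 and 8.20 in WtCS hearts, a difference of 0.45 ± 0.25 (SE, adjusted p = 0.311) in which the sei arrays of run C were high and those of run A were not. In run A alone the difference was -0.28 (adjusted p = 0.522).

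Known lncRNAs of the Bithorax complex and the nervous system stayed dim. The RNA iab8, which lies between abd-A and Abd-B and overlaps the microRNA genes mir-iab-4 and mir-iab-8, was read by 5 probesets with mean log2 intensities of 1.84 to 2.67. Their differences were -0.46 to 0.18 in sei hearts (smallest adjusted p = 0.225) and -0.18 to 0.07 in KCNQ hearts (smallest adjusted p = 1). For noe, which overlaps blot, a transporter gene, the values were 1.99, 2.00, 1.90, 1.80 and 2.65 in sei hearts and 3.99, 1.92, 2.03, 2.37 and 2.64 in WtCS hearts, a difference of -0.52 (adjusted p = 0.398). In KCNQ hearts noe had 1.72, 2.13 and 1.60, against 2.43, 2.51 and 1.44 in WtPE hearts (-0.31, adjusted p = 1). Next to noe, blot had a difference of -0.58 in sei hearts (adjusted p = 0.0597) and Sec3, an exocyst gene, rose by 0.64 (adjusted p = 0.0363).

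By position, 35 of the 88 genes overlap a protein-coding gene in the gene table, 7 overlap a microRNA gene, and 46 overlap no gene. Their 43, 11 and 55 probesets held 4, 1 and 4 of the calls in sei hearts, where 11.1% of all probesets were called. They held 2, 0 and 1 of the calls in KCNQ hearts, where 0.170% of all probesets were called. The first 2 classes share genes, among them CR43836, so its call is counted in both. The 7 genes with a microRNA are asRNA:CR17025, CR31044, CR42651, CR43314, CR43836, iab8 and mimi, and among them CR43836 was called. Arm 3R, with 30 genes the largest contributor, had 1 call in sei hearts, and arm 2L, with 22 genes, had none. With so few calls nothing is read from the counts by class or by arm. Over the 4 comparisons 13 probesets of 11 genes were called at least once, and 92 probesets were called in none. The 92 ranged from -0.86 to 1.74 in sei hearts and from -1.18 to 0.99 in KCNQ hearts. Of 12 genes with more than 1 probeset, CR42862 was the one with a call.

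Called lncRNAs were set beside their measured neighbors, and pairs that share a gene are not independent. A gene counted as called if any of its probesets was. Calls of neighbors are from all arrays, and no test within runs is given for them. The shares over all probesets, 11.1% in sei and 0.170% in KCNQ hearts, are per probeset and not directly comparable. In 32 pairs of a lncRNA or asRNA gene and an overlapping gene, the lncRNA had a called probeset in sei hearts in 7 pairs, the partner in 6 and both in 2, CR30121 with CG33998 and CR43836 with rdgA. In 101 pairs with a flanking gene the lncRNA was called in 9, the neighbor in 19 and both in 3, CR30121 with List and with CG18609, and CR32368 with Tmem43. In each of these 5 pairs, 3 of which hold CR30121, the called changes had the same sign. In KCNQ hearts the pairs in which both were called were CR42862 with CG33229 and CR42862 with CG42846, again with the same sign.

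Of 34 measured genes for proteins that bind, process or silence such RNAs or work in dosage compensation, 4 were called in sei hearts (11.8%, against 11.1% of all probesets). Of 11 measured proteins of the omega speckles, nuclear bodies built on the Hsromega RNA, and related hnRNPs, 1 rose and 2 fell in sei hearts, with a median log2 difference of -0.27. Hrb87F, a homolog of the hnRNP A family, averaged 10.7 in sei and 7.17 in WtCS hearts (3.52 ± 0.32, SE, adjusted p = 3.93e-06) and 10.9 in KCNQ hearts, close to WtPE hearts, so that WtCS alone was low. Hrb98DE fell by 0.54 (adjusted p = 0.0354) and heph, which encodes a polypyrimidine tract binding protein, fell by 1.95 (adjusted p = 0.00402). Of 7 measured genes of the small RNA pathways 1 was lower in sei hearts, the Argonaute gene AGO3 (-0.93, adjusted p = 0.0275). None of 10 genes of nuclear RNA decay and export and none of 6 dosage compensation genes passed the test in sei hearts, with medians of -0.10 and -0.40. None of the genes of these 4 lists passed in KCNQ hearts. The 3 Bithorax genes Ubx, abd-A and Abd-B were not analysed here, as no probeset carried any of them as its only symbol.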

How the data were processed

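RNA of pooled hearts was hybridised to 16 arrays (5 sei, 5 WtCS, 3 KCNQ, 3 WtPE). The authors ran RMA within AltAnalyze, after quality checks by affyQCReport. This subtracts background, makes the arrays' distributions equal and combines the probes of a set. The deposited values are these intensities on a linear scale, and log2 was taken here. Versions of these tools are not given in the sources used here. Array number and probe signal limit the precision. RMA gives no detection call.

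Of 18952 probesets, 183 platform controls were left out. The platform annotation gave 1 symbol to 13646 probesets, several to 402 (9 with a lncRNA or asRNA among them, not used) and none to 4721. All 88 genes were matched to the Release 6 gene table, used only for chromosome arms and neighboring genes.

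limma 3.58.1 in R 4.3.3 fitted the 4 group means to the 16 arrays (12 residual and 3.68 prior degrees of freedom). Probesets were called at an adjusted p under 0.05, two-sided, by Benjamini-Hochberg over 18769. No filter was applied. The members and lists were chosen with earlier results of these data known. The lncRNAs named are those called in any comparison, the 5 smallest p where fewer than 5 were called, iab8 and noe, the 5 brightest and 5 dimmest, and adjoining genes of those called, iab8 and noe. CR33942 and asRNA:CR43944's array values were added after values were seen, as were CR31781's within runs. Alternatives were Student's t-test of each probeset (its own spread alone), separate fits, an intensity trend with robust prior, repeated quantile normalization, 75th percentile scaling, a mean log2 of at least 5, a pseudocount of 8, the array run, run A alone, the replicate block, averaged sample codes, leaving out each array, the study's thresholds and, added after seeing the data, run C alone. Where a list gene had several probesets, the brightest was taken. Sequences were not analysed here.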

Additional observations from a re-analysis of the deposited data

Results flagged for a closer look

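A single array stood apart from the other 4 of its group in 3 of the 52 groups of 5 arrays examined among 26 named probesets, by the size of its gap relative to the range of the group. Chance gives about 1 in 20. CR30121 in sei replicate 5 was at log2 2.05, against 1.21 to 1.31 in the other sei arrays (gap 0.880 of the range), and noe in the same array was at 2.65, against 1.80 to 2.00 (0.765). A probeset of CR34047 with a mean log2 of 1.37 in WtCS replicate 4 was at 2.01, against 1.30 to 1.48 (0.745). All of these values lie in the dim range of the array.

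The sei effect and the KCNQ effect differed, by the test of the difference itself in limma, for CR30121 (-6.32 on the log2 scale, adjusted p = 5.47e-05), for the brightest CR42862 probeset (-4.76, adjusted p = 3.94e-05), its s_at probeset (-3.71, adjusted p = 0.00527) and the third (-2.31, adjusted p = 0.0455), and for CR42646 (-1.94, adjusted p = 0.00128). In CR42862 the low group was WtPE, and in CR42646 the high group was KCNQ.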

How the results depend on the processing

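The count of lncRNA and asRNA probesets called in sei hearts, 8, became 2 by Student's t-test, 5 by a separate fit, 3 among the 14 with a mean log2 of at least 5, and 5 to 9 without any single array. A count of 5 came without sei replicate 2 or WtCS replicate 1. The 3 in KCNQ hearts became 0 by Student's t-test, 1 with a mean log2 of at least 5, 6 by the study's rule of a 2-fold change at p under 0.05 without adjustment, and 2 to 3 without any single array. The 5 in the difference of effects became 1 with a mean log2 of at least 5, 3 with a pseudocount of 8, 8 by the study's rule, and 4 to 5 without any single array. The 6 in WtPE against WtCS hearts became 1 by Student's t-test, 3 by separate fits, 2 with a mean log2 of at least 5, 17 with the run as a covariate, 15 in run A, 10 by the study's rule, and 3 to 7 without any single array. The 3 came without WtPE replicate 1 or WtCS replicate 4. By the study's rule 123 of all 18769 probesets were higher and 135 lower in KCNQ hearts. The same rule gave 822 higher and 628 lower in the difference of effects, and 673 and 570 in WtPE against WtCS hearts. For the remaining settings no share is given here, and nothing about these RNAs is read from the counts. The filter at a mean log2 of 5 leaves fewer probesets to call. Run A holds fewer arrays, yet its count in WtPE against WtCS hearts was 15, against 6 over all arrays. What moved the counts was not tested. Other settings kept each count within 1.5 times, and none of the 22 called log2 differences changed sign under any setting run. Differences that were not called could turn: in sei hearts asRNA:CR43944 had 0.45 over all arrays and -0.28 in run A, the dimmer CR31781 probeset had 0.66 and -0.09, and CR42646 had 0.01 and, with the run as a covariate, -0.05. Same-numbered arrays correlated at 0.0343 to 0.527 in sei and WtCS and at -0.0392 to 0.0817 in KCNQ and WtPE deviations. The highest, 0.527, was for replicate 3, whose sei and WtCS arrays are both of run C. Arrays of different numbers were not compared in this way, so whether the numbers pair the arrays was not tested. With the replicate block 7, 3, 4 and 5 probesets were called in these 4 comparisons.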
